A study of Ovis aries with 8 samples.

Results

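Cholesterol and fatty acids are both built from cytosolic acetyl-CoA. In the sterol branch, acetyl-CoA is condensed and reduced to mevalonate, mevalonate is turned into isoprenoid units and squalene, and squalene is closed into a ring and trimmed to cholesterol. In the fatty acid branch, acetyl-CoA is carboxylated to malonyl-CoA, polymerised to palmitate, and then elongated and desaturated. Both branches are under the sterol regulatory element-binding proteins (SREBPs), transcription factors held in the endoplasmic reticulum by INSIG proteins and escorted to the Golgi for activation by SCAP when membrane sterol is low. In beta cells, cholesterol is a component of secretory granule and plasma membranes. Newly made malonyl-CoA is one of the metabolic signals that accompany glucose-stimulated secretion.

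The genes described here were 30 symbols of this pathway: 16 of sterol synthesis, 9 of fatty acid synthesis and 5 of SREBP control. A gene was taken as the row of the deposited table that carries exactly its symbol. Of the 30, 28 were found among the 25000 rows: 14 sterol genes, 9 fatty acid genes and 5 control genes. FDPS (farnesyl diphosphate synthase) and SC5D (sterol C5-desaturase) are not listed under these symbols and were not analysed here. All 28 passed the filter on low values, a mean of at least 1 FPKM (the fragment count of a gene, as a level corrected for gene length and library size), which left 13252 rows for testing.

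RNA was sequenced from hand-picked pancreatic islets of near-term singleton fetuses of Columbia-Rambouillet ewes. The norepinephrine group, 4 fetuses, received the catecholamine intravenously for 7 days, at 1 µg/min on day 1, 2 µg/min on days 2 to 4 and 4 µg/min on days 5 to 7. The control group, 4 fetuses, received only the diluent, saline (0.9%) with ascorbic acid (0.3%). Norepinephrine fetuses were 137 to 139 days of gestation and weighed 2.8 to 3.7 kg, and controls were 139 to 140 days and weighed 3.6 to 5 kg. Each group held 1 female (norepinephrine 3 and control 2) and 3 males. Animal numbers in the labels start with 09 for norepinephrine 1, 3 and 4 and control 2, and with 10 for norepinephrine 2 and controls 1, 3 and 4. The labels do not say what this prefix stands for.

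Summed FPKM ran from 981583 to 1112624 in the animals numbered 09 and from 768021 to 796149 in those numbered 10. Islet transcripts were present in every animal: GCG, which encodes glucagon, stood at 861 to 4108 FPKM with norepinephrine and 703 to 2434 in controls, and PDX1, a beta-cell transcription factor, at 226 to 317 and 211 to 279. The summed level of the 10 listed acinar markers (of 18 searched) was 143 to 1049 FPKM with norepinephrine and 135 to 212 in controls, and norepinephrine 3 was highest in 7 of the 10. Norepinephrine 4 was highest in all 6 listed mesenchyme markers (of 7 searched), with a summed 1772 FPKM against 303 to 711 in the other 7 animals, and lowest in 5 of 8 beta-cell markers. The 6 adipocyte markers summed to 5.17 to 9.63 FPKM with norepinephrine and 4.72 to 9.72 in controls, with LEP (leptin) at 0 in all 8. In RNA from whole islets, fewer cells of a type and less RNA per cell cannot be told apart.

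All 28 genes were expressed in every animal. ACLY, which cleaves citrate to cytosolic acetyl-CoA at the head of both branches, was the most abundant gene of the set, with a mean of 275 FPKM over the 8 animals. It was followed by FADS2 (195 FPKM), SCD (131 FPKM) and SREBF2 (95.1 FPKM). The most abundant genes of sterol synthesis were FDFT1 (80.5 FPKM), CYP51A1 (77.7 FPKM), SQLE (75.5 FPKM) and HMGCS1 (72.0 FPKM). HSD17B7 (10.3 FPKM) and ACACA (12.8 FPKM) were the least abundant members of the 28. No other row with a value above 0 overlapped the locus of any of the 28, so their values do not share a locus with a second expressed gene of the table.

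The first comparison asked whether 7 days of norepinephrine left the pathway higher or lower. No gene of the 28 passed: limma called 0 at an adjusted p under 0.05, where it called 0% of all 13252 rows, and the lowest adjusted p of the 28 was 0.460. At an unadjusted p under 0.05, 1 of the 28 was called (background 7.36%), with 0 higher with norepinephrine (background 3.61%) and 1 lower (background 3.74%). With the number prefix in the model, limma called 0 of the 28 at an adjusted p under 0.05 (background 0.00755%) and 1 at an unadjusted p under 0.05 (background 11.7%). The log2 difference was negative in 18 of 28 genes, 64.3% of them, as in 47.4% of all tested rows. With FPKM rescaled to an equal sum in each animal, 22 of the 28 were negative, and the median of all rows moved to -0.12. The median log2(FPKM + 1) difference, norepinephrine minus control, was -0.14 for sterol genes, -0.06 for fatty acid genes and 0.23 for SREBP control genes, beside 0.02 for all tested rows. The plot of differences with 95% intervals shows the error of each estimate. For HMGCS1, for example, the interval ran from -0.67 to 0.71.

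**Figure D1:**
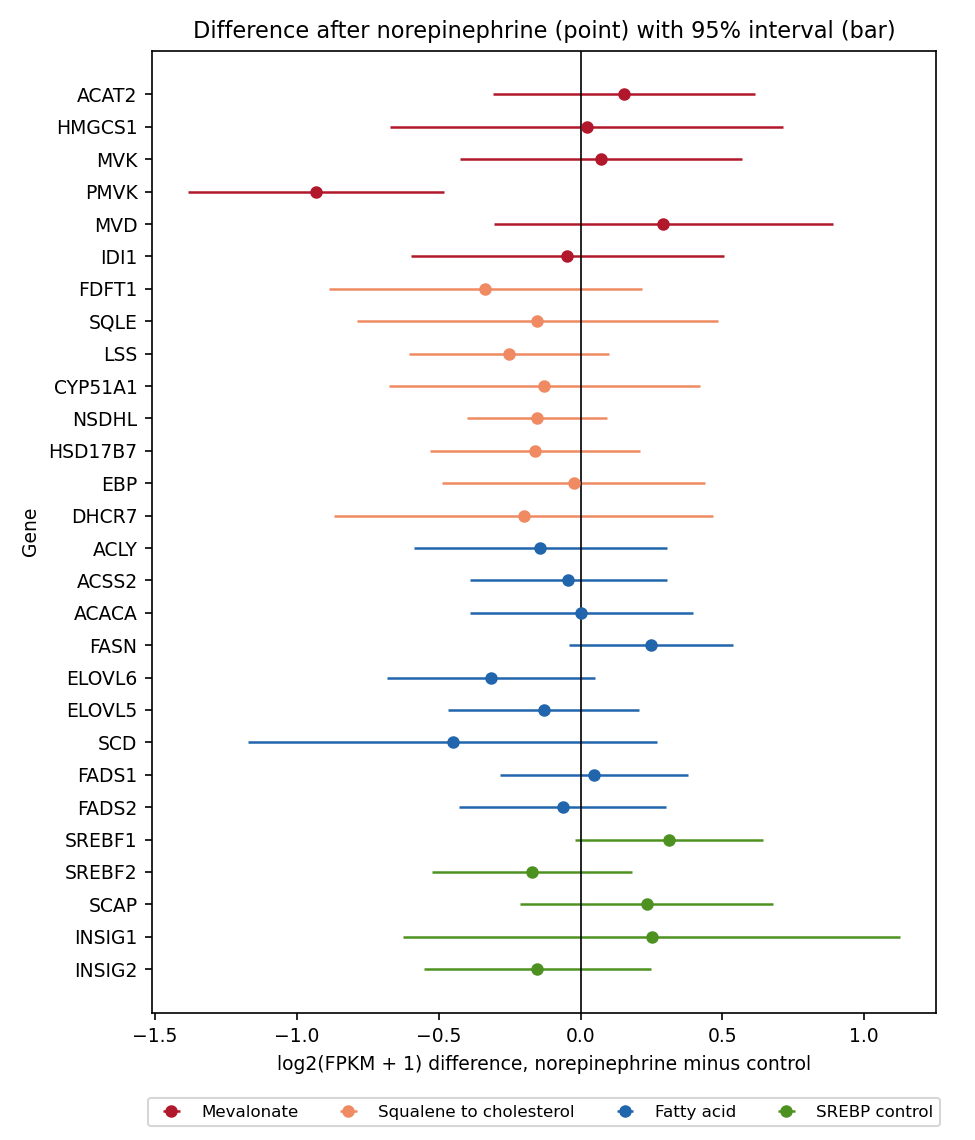
Difference in log2(FPKM + 1), norepinephrine minus control, for each of the 28 genes (x axis), with the gene on the y axis, points for the limma estimate, bars for its 95% interval and colours for the 4 roles. The interval of PMVK (-1.39 to -0.48) lies wholly below 0, and those of the other 27 genes cross 0.

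In the mevalonate arm, PMVK had the largest difference. PMVK encodes phosphomevalonate kinase, which adds the second phosphate to mevalonate (Oar_v3.1, chromosome 1, 103716893 to 103727965). It was at 9.73, 14.6, 13.8 and 11.0 FPKM in norepinephrine 1 to 4, against 17.6, 32.5, 24.7 and 23.5 FPKM in controls 1 to 4. Every norepinephrine animal lay below every control. That complete separation downward was seen in 1 of the 28 genes, a count near the background of 2.35% of all tested rows. PMVK averaged 12.3 ± 2.29 FPKM with norepinephrine and 24.6 ± 6.11 FPKM in controls (SD, n = 4 each), a ratio of 0.499. Its log2 difference was -0.93 (SE 0.20), with an unadjusted limma p of 0.00111, rank 27 of 13252, and an adjusted p of 0.460, so it did not pass. Taken separately, animals numbered 09 gave a difference of -1.43 and animals numbered 10 one of -0.55. Leaving out 1 animal at a time gave differences from -1.08 to -0.79, with adjusted p from 0.197 to 0.999, and without both females it was -0.85. With equal summed FPKM it was -1.08, and the groups still did not overlap. Under that scaling 465 of 13263 rows were separated downward, against 311 of 13252 as deposited.

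The kinases and decarboxylase on either side of PMVK did not share its difference. MVK, mevalonate kinase, the step before, was at 13.0, 14.2, 10.6 and 16.9 FPKM with norepinephrine and 10.5, 19.4, 12.9 and 10.1 FPKM in controls. MVD, mevalonate diphosphate decarboxylase, the step after, was at 49.6, 36.5, 69.2 and 58.6 FPKM with norepinephrine and 31.7, 69.0, 35.7 and 41.2 FPKM in controls. Both sets of values overlapped, with log2 differences of 0.07 (SE 0.22, adjusted p = 0.944) and 0.29 (SE 0.27, adjusted p = 0.799) by limma. The sign turned to -0.09 for MVK and -0.11 for MVD with the number prefix in the model. For MVK it also turned, to -0.07, with equal summed FPKM.

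Entry into the arm was uneven between animals within each group. HMGCS1, the cytosolic HMG-CoA synthase, was at 41.4, 93.8, 112 and 52.2 FPKM with norepinephrine and 74.2, 85.8, 62.0 and 54.4 FPKM in controls. The norepinephrine group thus held both its lowest and its highest animals. The means were 74.9 ± 33.5 and 69.1 ± 13.8 FPKM, a log2 difference of 0.02 (SE 0.31). This difference turned to -0.13 with equal summed FPKM. ACAT2, the acetoacetyl-CoA thiolase of the first condensation, averaged 40.5 ± 6.30 FPKM with norepinephrine and 37.1 ± 11.4 FPKM in controls. IDI1, the isopentenyl diphosphate isomerase, averaged 56.5 ± 12.6 and 60.1 ± 22.9 FPKM, and control 2 at 94.2 FPKM stood above the other 7 animals.

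From squalene to cholesterol, all 8 genes had a negative log2 difference, as did 47.4% of all tested rows, and none passed. Control 2 was the highest animal in 6 of the 8. Over all 14 sterol genes, with the mevalonate arm included, 6 were negative without control 2, against 10 with all animals. Among the 8, the estimates of SQLE, EBP and CYP51A1 crossed 0 when animals were left out singly. The median log2 difference of the 8 genes was -0.16, the range was -0.34 to -0.03, and the lowest limma adjusted p was 0.742. FDFT1, squalene synthase, the first step committed to sterols, was at 66.9, 67.8, 108 and 46.3 FPKM with norepinephrine and 72.0, 112, 91.1 and 79.5 FPKM in controls. Only norepinephrine 3 reached the control range there, and the log2 difference was -0.34 (SE 0.25, limma adjusted p = 0.776). LSS, lanosterol synthase, which closes the ring, was at 13.9, 18.9, 16.5 and 13.1 FPKM with norepinephrine and 18.9, 20.1, 20.7 and 15.2 FPKM in controls, a difference of -0.25 (SE 0.16, adjusted p = 0.742). NSDHL, the C4-decarboxylating dehydrogenase encoded on the X chromosome, varied least of the 28, with 26.8 to 33.3 FPKM with norepinephrine and 32.1 to 34.6 FPKM in controls (difference -0.15, SE 0.11). Its groups overlapped in the deposited values and did not overlap after median-of-ratios scaling.

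The remaining steps showed wide and overlapping groups. SQLE, squalene epoxidase, was at 45.6, 72.3, 102 and 65.6 FPKM with norepinephrine and 69.9, 121, 71.6 and 55.8 FPKM in controls. CYP51A1, lanosterol demethylase, averaged 74.5 ± 22.7 and 81.0 ± 22.5 FPKM. DHCR7, which carries out the last reduction to cholesterol, averaged 19.6 ± 8.57 and 22.3 ± 7.65 FPKM. EBP, the sterol isomerase, also X-linked, averaged 37.2 ± 4.58 and 39.0 ± 12.4 FPKM, and HSD17B7, a ketoreductase, 9.57 ± 0.748 and 11.0 ± 2.52 FPKM, norepinephrine before control in each. With the number prefix in the model all 8 estimates were again negative, with a median of -0.25 and a lowest limma adjusted p of 0.574. Taken separately, animals numbered 09 gave a median of -0.65 and animals numbered 10 one of 0.04, where FDFT1 (-0.25), DHCR7 (-0.20) and NSDHL (-0.13) were negative.

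None of the 9 fatty acid genes passed, with 3 positive and 6 negative differences. FASN, the multifunctional fatty acid synthase (chromosome 11, 49940273 to 49955854), was at 42.5, 46.7, 43.2 and 38.5 FPKM with norepinephrine and 36.2, 35.0, 42.3 and 30.5 FPKM in controls. Norepinephrine 1, 2 and 3 lay above all controls and norepinephrine 4 lay below control 3. The means were 42.8 ± 3.36 and 36.0 ± 4.84 FPKM, 0.25 apart on the log2 scale (SE 0.13, limma adjusted p = 0.695). The difference was 0.24 inside prefix 09 and 0.37 inside prefix 10. ACACA, acetyl-CoA carboxylase 1, which supplies FASN with malonyl-CoA, was at 13.2, 15.5, 11.6 and 10.7 FPKM with norepinephrine and 13.3, 9.65, 15.5 and 12.6 FPKM in controls. The carboxylase groups overlapped throughout, with a log2 difference of 0.00 (SE 0.17). This difference was -0.14 with equal summed FPKM and -0.02 with median-of-ratios scaling.

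Elongation and desaturation genes mostly had lower means. ELOVL6, the elongase of palmitate, was at 17.1, 23.2, 23.6 and 17.5 FPKM with norepinephrine and 31.6, 22.1, 24.4 and 24.2 FPKM in controls, a difference of -0.32 (SE 0.16, adjusted p = 0.695). SCD, stearoyl-CoA desaturase, which places the first double bond, was at 97.6, 122, 190 and 54.9 FPKM with norepinephrine and 145, 150, 166 and 122 FPKM in controls. Norepinephrine 4 and norepinephrine 3 were its lowest and highest animals of all 8, and the difference of -0.45 (SE 0.32, adjusted p = 0.773) lay within that spread. The polyunsaturated desaturases FADS1 and FADS2, both on chromosome 21, averaged 51.9 ± 9.76 and 192 ± 37.0 FPKM with norepinephrine, against 49.5 ± 1.70 and 198 ± 10.8 FPKM in controls. ELOVL5, the elongase of polyunsaturated chains, averaged 83.5 ± 7.20 and 92.4 ± 17.0 FPKM, norepinephrine before control.

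The genes for acetyl-CoA supply, ACLY and ACSS2, overlapped between the groups, and neither passed. ACLY was at 335, 250.5, 293 and 178 FPKM with norepinephrine and 268, 257, 331 and 285 FPKM in controls, and ACSS2, which makes acetyl-CoA from acetate, averaged 16.4 ± 1.82 and 17.1 ± 3.20 FPKM. Norepinephrine 4 was the lowest animal of the 8 for ACLY and ACSS2 as for SCD, FADS1 and FADS2, 5 of the 9 fatty acid genes. The same animal was highest in all 6 listed mesenchyme markers and lowest in 5 of 8 beta-cell markers. Its summed beta-cell level was 1578 FPKM, between the lowest animal (control 3, 1456 FPKM) and the highest (norepinephrine 1, 2302 FPKM). UCN3 alone held 992 of the 1578 FPKM. The mean log2 deviation of the 8 beta-cell markers was -0.54 in norepinephrine 4, the lowest of the 8 animals (next -0.08, control 4). The part of these markers in the fatty acid values was not tested. Without norepinephrine 4 the median fatty acid difference was 0.03, against -0.06 with all 8 animals.

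**Figure D2:**
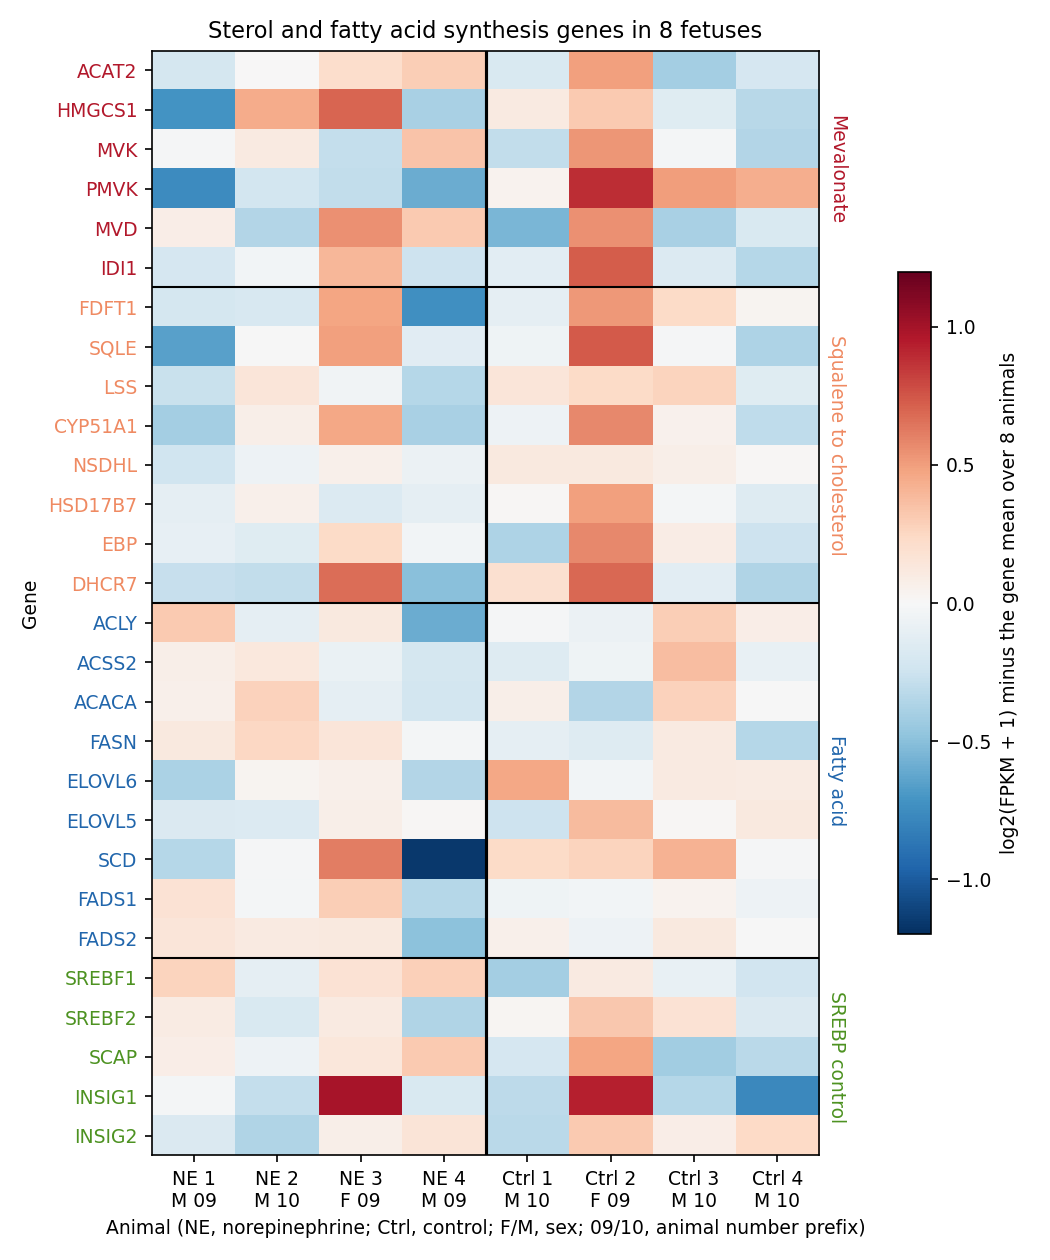
Heat map of the 28 genes (rows, grouped by role) in the 8 fetuses (columns, norepinephrine left of control), coloured by log2(FPKM + 1) minus the mean of the gene over the 8 animals. The columns of norepinephrine 3 and control 2 are red through most sterol rows and INSIG1. In the PMVK row all 4 norepinephrine columns are blue, controls 2, 3 and 4 are red and control 1 lies close to the gene mean.

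Of the SREBP genes themselves, SREBF1 had a higher mean with norepinephrine and SREBF2 a lower one, and neither passed. SREBF1, which encodes the factor that favours fatty acid genes, was at 54.2, 41.6, 50.6 and 54.9 FPKM with norepinephrine and 33.6, 48.2, 41.9 and 38.1 FPKM in controls. Norepinephrine 1, 3 and 4, all numbered 09, lay above every control, and norepinephrine 2 lay inside the control range. The means were 50.3 ± 6.11 and 40.5 ± 6.21 FPKM and the log2 difference was 0.31 (SE 0.15, limma adjusted p = 0.678). It shrank to 0.14 (adjusted p = 0.669) once the number prefix was added, and was 0.14 within each number prefix. SREBF2, whose product favours sterol genes, averaged 89.5 ± 13.9 FPKM with norepinephrine and 100.7 ± 14.8 FPKM in controls, a difference of -0.17 (SE 0.16, adjusted p = 0.800).

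Of the proteins that retain or carry the SREBPs, SCAP averaged 34.0 ± 3.76 FPKM with norepinephrine and 29.6 ± 9.54 FPKM in controls. Control 2, at 43.7 FPKM, was its highest animal and the other 3 controls, at 23.1 to 26.9 FPKM, were the lowest 3 of the 8. INSIG1, itself a target of the SREBPs, was at 62.8, 52.2, 128 and 56.3 FPKM with norepinephrine and 51.2, 123, 50.1 and 36.9 FPKM in controls. A single animal in each group stood far above the other 3, and the means were 74.8 ± 35.6 and 65.3 ± 38.9 FPKM, with a log2 difference of 0.25 (SE 0.39, adjusted p = 0.888). INSIG2, its homologue, averaged 26.3 ± 4.39 FPKM with norepinephrine and 29.4 ± 5.56 FPKM in controls, a difference of -0.15 (SE 0.18, adjusted p = 0.841) and of -0.33 once the prefix was added (limma adjusted p = 0.486). The median of the 5 control genes, 0.23, was -0.24 after adding the prefix to the model and -0.04 without norepinephrine 3, so no direction is given for this group.

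**Figure D3:**
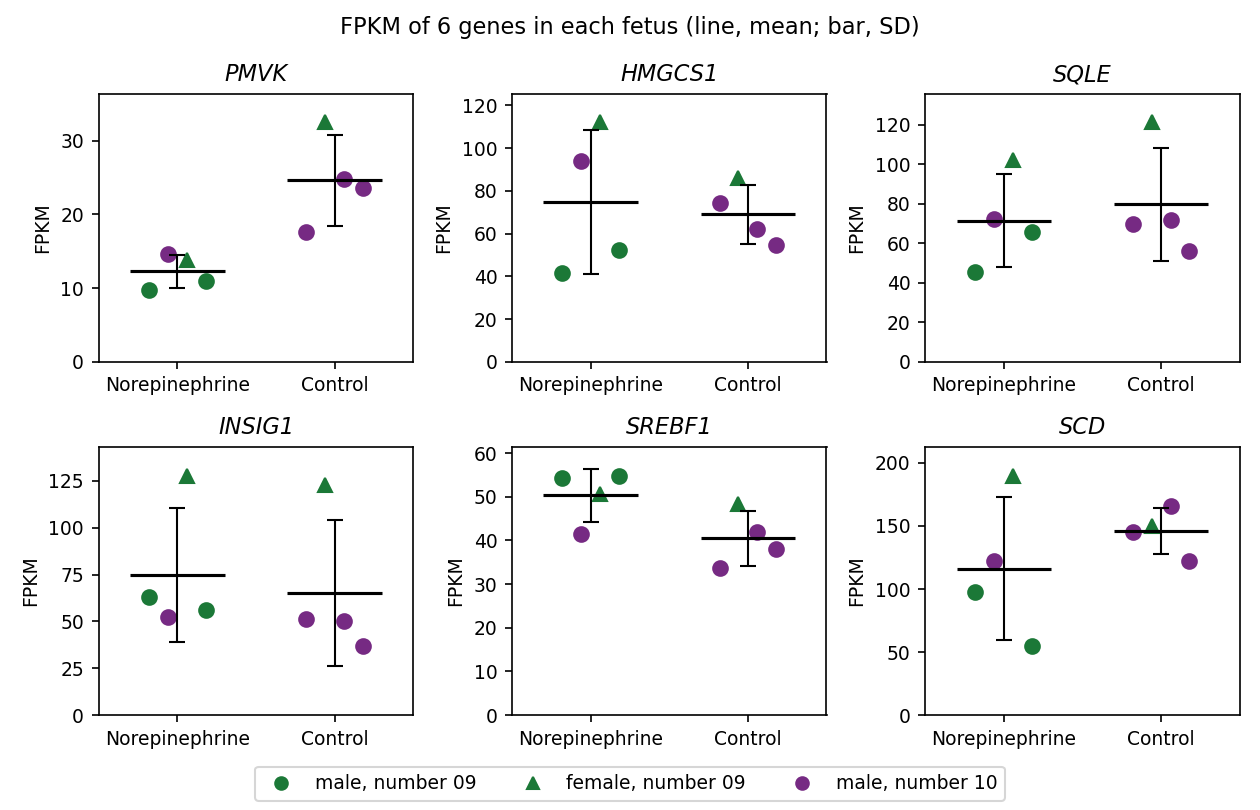
FPKM (y axis, from 0) of 6 genes in each fetus by group, with the mean as a line, the SD as a bar, triangles for the females, and colours for the number prefix. PMVK is the only panel whose groups do not overlap, and in HMGCS1, SQLE and INSIG1 the female of each group is its highest animal.

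Sterol and fatty acid genes were set against each other within the norepinephrine contrast. The sterol median minus the fatty acid median was -0.08 on the log2 scale, less than the 0.29 SD between animals, and neither branch was called. Within animals numbered 09 the medians were -0.58 for sterol and -0.02 for fatty acid genes. Within animals numbered 10 they were 0.09 and -0.00. The sterol difference was thus negative in prefix 09 and not in prefix 10. Each of these values sets 3 animals against a single one, control 2 in prefix 09 and norepinephrine 2 in prefix 10. With the prefix in the model of all 8 animals, the sterol median was -0.25, with 13 of 14 sterol genes negative, the fatty acid median was 0.01, and the sterol minus fatty acid difference was -0.26. Without control 2 the sterol median was 0.06 in place of -0.14. Without norepinephrine 1 it was -0.01.

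Differences between fetuses were larger than those between groups, and the branches differed in which fetuses were high. The mean deviation of the 14 sterol genes from their gene means, in log2 units, was -0.29, -0.03, 0.25 and -0.19 in norepinephrine 1 to 4, and -0.08, 0.53, -0.01 and -0.18 in controls 1 to 4. For the 9 fatty acid genes it was -0.00, 0.05, 0.14 and -0.38 with norepinephrine and 0.03, -0.01, 0.20 and -0.03 in controls. Control 2 was the highest of the 8 animals in 10 of 14 sterol genes and in 1 of 9 fatty acid genes. Norepinephrine 1 was the lowest in 5 sterol genes and norepinephrine 4 in 3.

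**Figure D4:**
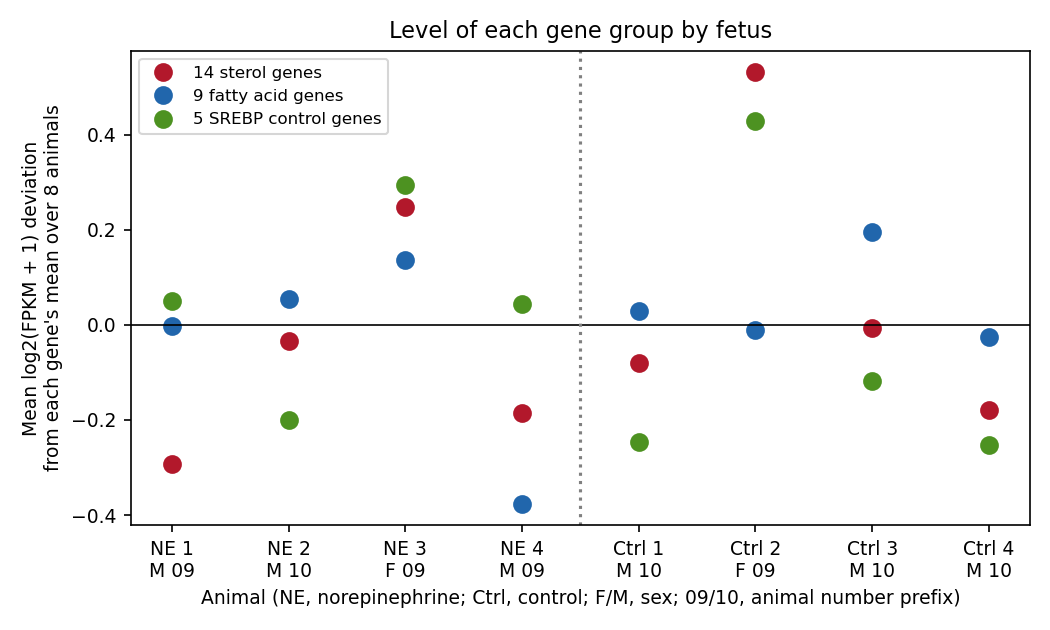
Mean deviation of log2(FPKM + 1) from the 8-animal gene mean (y axis) for sterol, fatty acid and SREBP control genes in each fetus (x axis, norepinephrine left of control). Sterol and control genes are highest in control 2 (0.53 and 0.43) and norepinephrine 3 (0.25 and 0.29), while fatty acid genes sit near 0 in control 2 and lowest in norepinephrine 4 (-0.38).

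The 2 fetuses with high sterol genes were the 2 females. This comparison was added after the values had been seen, and with 2 females, both numbered 09, sex cannot be told apart from the identity of these animals. Both females lay above all 6 males in 7 of 14 sterol genes (IDI1, MVD, FDFT1, SQLE, CYP51A1, EBP and DHCR7), in 0 of 9 fatty acid genes and in 1 of 5 control genes, INSIG1, where 9.77% of all tested rows showed this order. INSIG1 was the widest case, at 128 and 123 FPKM in the females and 36.9 to 62.8 FPKM in the males. SQLE was at 102 and 121 FPKM in the females and 45.6 to 72.3 FPKM in the males, and DHCR7 at 32.4 and 32.8 FPKM against 13.8 to 23.0 FPKM. PMVK did not follow them, with 13.8 FPKM in the norepinephrine female and 32.5 FPKM in the control female.

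In a limma model with treatment, number prefix and sex, the median female minus male difference was 0.49 for sterol genes, 0.21 for fatty acid genes and 0.12 for control genes, beside 0.02 for all tested rows. Of the 28, 0 passed an adjusted p under 0.05 (background 0.0453%), with a lowest adjusted p of 0.159. At an unadjusted p under 0.05, 8 of 28 were higher in females (background 6.37%) and 0 were lower (background 6.97%). HMGCS1 had the largest estimate (1.31, adjusted p = 0.159), then SCD (1.19, adjusted p = 0.242) and INSIG1 (1.13, adjusted p = 0.187). The sex estimates of this model lean on norepinephrine 1 and 4, the only males numbered 09 like the females. HMGCS1 averaged 98.9 FPKM in females, 46.8 in males numbered 09 and 63.0 in all males. SCD averaged 170, 76.2 and 118 FPKM in the same order. Norepinephrine 2 (93.8 FPKM) lay above control 2 (85.8 FPKM) in HMGCS1. For SCD, control 3 (166 FPKM) lay above control 2 (150 FPKM). The order of animals depended on the scaling. With equal summed FPKM both females exceeded all males in 3 of 14 sterol genes (IDI1, MVD and SQLE) and in INSIG1. Of all rows, 2.59% showed this order. With median-of-ratios scaling the 7 sterol genes were the same. Marker genes of other cells differed in the same contrast. All 6 mesenchyme markers were lower in females at an unadjusted p under 0.05, with summed levels of 310.0 and 514 FPKM in the females and 303 to 1772 FPKM in the males, and 4 of 5 endothelial markers were lower too. The females differed from each other in acinar markers, with a summed 1049 FPKM in norepinephrine 3 and 212 FPKM in control 2. The part of these markers in the sterol values was not tested.

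Animals numbered 10 and 09 were compared with treatment in the model, because the prefix is spread unequally over the groups. Of the 28 genes, limma called 1 lower in animals numbered 10 (background 10.4%) and 0 higher (background 6.06%). The gene was MVD, at 36.3 ± 3.88 FPKM in animals numbered 10 and 61.6 ± 9.39 FPKM in those numbered 09 (SD, n = 4 each), giving -0.79 on the log2 scale (SE 0.15, limma adjusted p = 0.0184). The call was not made without control 2, without norepinephrine 2 or without both females. It was also not made with gestational age, sex or the acinar mean in the model, or with equal summed FPKM. Under equal summed FPKM 7 other members were called, all higher in animals numbered 10. Among them were ACACA (0.84, limma adjusted p = 0.00604) and FASN (0.55, limma adjusted p = 0.0220). A comparison of the prefixes thus depends on how summed FPKM is scaled.

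Other genes of lipid metabolism were taken from 6 further lists of 63 symbols, of which 58 were listed and 55 tested. None passed in the norepinephrine contrast (0 of 55 by limma, 0 higher and 0 lower), with 3 higher (background 3.61%) and 1 lower (background 3.74%) at an unadjusted p under 0.05, shares near the background. The 4 genes are given as values. The lower one was SOAT1, which esterifies cholesterol for storage, at 31.5, 40.1, 37.0 and 33.4 FPKM with norepinephrine and 71.6, 53.2, 44.2 and 50.8 FPKM in controls. All norepinephrine animals lay below all controls (log2 difference -0.60, SE 0.16, limma adjusted p = 0.523). That order was seen in 1 of the 55 tested genes, near the background of 2.35% of all tested rows. ABCG1, a sterol exporter, averaged 25.3 ± 4.05 FPKM with norepinephrine and 18.5 ± 2.61 FPKM in controls (0.43, SE 0.16, adjusted p = 0.597).

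The other 2 genes at that unadjusted level were fatty acid elongases outside the 28. ELOVL7 was at 31.8, 40.8, 26.5 and 51.0 FPKM with norepinephrine and 26.4, 22.9, 19.7 and 21.1 FPKM in controls, a difference of 0.68 (SE 0.20, adjusted p = 0.523). ELOVL2, an elongase of polyunsaturated chains, was at 3.27, 2.57, 2.20 and 3.41 FPKM with norepinephrine and 1.06, 0.924, 1.25 and 1.59 FPKM in controls (0.80, SE 0.19, adjusted p = 0.492). In both, every norepinephrine animal lay above every control, which held for 1.88% of all tested rows. SLC25A1, the mitochondrial citrate carrier that feeds ACLY, averaged 198 ± 29.7 and 145 ± 46.8 FPKM (0.49, SE 0.22, adjusted p = 0.671), with 0.19 once the prefix was added.

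The rest of the wider sterol genes showed no separation by treatment. MSMO1, the sterol C4-methyl oxidase, averaged 61.3 ± 14.1 FPKM with norepinephrine and 66.2 ± 13.9 FPKM in controls. In this gene both females, at 75.7 and 84.6 FPKM, lay above all males. TM7SF2, a sterol reductase named after its values were seen, showed the same order, which neither gene kept with equal summed FPKM. MBTPS2, the protease that completes SREBP release, averaged 8.27 ± 0.919 and 10.2 ± 1.03 FPKM, and SEC24C, a coat protein of vesicles leaving the endoplasmic reticulum, 56.1 ± 7.71 and 67.2 ± 3.36 FPKM, norepinephrine before control. Neither passed. NPC2, a lysosomal cholesterol carrier, averaged 121 ± 25.5 and 147 ± 43.6 FPKM, and LPCAT3, a phospholipid acyltransferase, 133 ± 35.4 and 137 ± 42.2 FPKM. COQ2 of ubiquinone synthesis (log2 difference 0.27) and GGPS1 of geranylgeranyl synthesis (-0.14) had limma adjusted p of 0.704 or more. The same held for the nuclear receptors NR1H2 (0.07) and RXRA (0.34), the acyl-CoA synthetase ACSL4 (0.36) and the phosphatidate phosphatase LPIN1 (-0.33).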

How the data were processed

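RNA from islets of 8 fetuses was sequenced as paired reads of messenger RNA, per the labels' protocols. TopHat2 2.0.1, Cufflinks 2.1.1, Cuffdiff and the build Oar_v3.1 come from the submitters' processing notes. Of the annotation, the filters and the strand setting nothing is given in the sources used here. The authors deposited 1 FPKM value per gene and animal, and no counts. Columns were matched to animals by the animal number in header and label (0 columns left over), and coordinates count from 1. Absolute depth is unknown. From the steps of low values, depth relative to control 1 was 0.648 for norepinephrine 1, 1.01 for norepinephrine 2, 0.726 for norepinephrine 3, 1.17 for control 3 and 1.08 for control 4, with no clear step for the other 2.

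Values were analysed as log2(FPKM + 1), which understates changes of low genes. Rows with a mean of at least 1 FPKM were fitted with limma 3.58.1 in R 4.3.3 (trended variance, two-sided, Benjamini-Hochberg adjustment over 13252 rows, threshold 0.05). Replicates are separate fetuses. The test was tested on simulated data. All members were reported. Of each wider list the most abundant gene and the 2 with the lowest p were named (MSMO1, COQ2, GGPS1, SEC24C, MBTPS2, NPC2, SOAT1, ABCG1, LPCAT3, RXRA, NR1H2, SLC25A1, ELOVL2, ELOVL7, ACSL4 and LPIN1), and 1 gene that this rule names is not reported here. Members and lists were chosen with earlier results of these data known. The alternatives were other pseudocounts, filters, scalings, covariates, a replicate block and leaving out animals.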

Additional observations from a re-analysis of the deposited data

Results flagged for a closer look

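Of the 56 sets of 4 values (28 genes in each group), 6 held an animal far from the other 3 of its group by Dixon's ratio. Chance flags about 1 set in 20. All 4 flagged sterol and control-gene values were in the females. INSIG1 was at 128 FPKM in norepinephrine 3 (next highest 62.8) and at 123 FPKM in control 2 (next highest 51.2), and both are the highest of their group. IDI1 was at 94.2 FPKM in control 2 (next 51.7), and DHCR7 at 32.4 FPKM in norepinephrine 3 (next 16.3). The other 2 were fatty acid genes: FADS2 was at 137 FPKM in norepinephrine 4, the lowest of its group (next 208), and ACSS2 at 21.8 FPKM in control 3, above all other controls.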

How the results depend on the processing

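PMVK kept its direction under every alternative run (-1.08 to -0.79), and none of the 28 genes passed an adjusted p of 0.05 in the norepinephrine contrast under any. All 28 kept their direction with the other pseudocount, with both other filters, without the variance trend, with the replicate block and with fetal sex in the model. The cause of the changes below was not tested. With equal summed FPKM, 1 gene in all passed and 2 members had an unadjusted p under 0.05, and signs turned for ACACA (-0.14), HMGCS1 (-0.13), MVK (-0.068) and FADS1 (-0.10). Median-of-ratios scaling turned ACACA (-0.017). With the number prefix, 1 gene passed and 1552 reached the unadjusted level (975 without it), the control-gene median was -0.24, and signs turned for ACSS2 (0.030), MVD (-0.11), MVK (-0.093), SCAP (-0.023), FADS2 (0.013), INSIG1 (-0.24) and ACAT2 (-0.058). With gestational age, the medians were 0.30 for fatty acid genes, -0.11 for control genes and -0.41 for sterol minus fatty acid, and signs turned for ACLY (0.21), ACSS2 (0.11), MVD (-0.12), MVK (-0.41), SCAP (-0.17), FDFT1 (0.017), FADS2 (0.30), SCD (0.38), CYP51A1 (0.079), ELOVL6 (0.024) and ACAT2 (-0.16). With the acinar marker mean, the control-gene median was -0.31, and signs turned for ACSS2 (0.059), MVD (-0.14), HMGCS1 (-0.010), FADS1 (-0.071) and INSIG1 (-0.33). Without both females, 1 gene passed, 1619 genes and 6 members (PMVK, SREBF1, SCAP, FDFT1, SCD and ELOVL6) reached the unadjusted level, and signs turned for HSD17B7 (0.0063), ACACA (-0.080), IDI1 (0.047), HMGCS1 (-0.099), FADS1 (-0.046) and EBP (0.083). With prefix and sex, an alternative added after the data were seen like the other 2 on sex, 2 genes passed, 2 members reached the unadjusted level, and signs turned for ACSS2 (0.038), MVK (-0.13), FADS2 (0.096), SCD (0.00099) and CYP51A1 (0.065).

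Leaving out 1 animal at a time gave 0 to 2 genes passing, 588 to 2185 genes and 1 to 5 members at the unadjusted level (588 without control 3, 2185 and 5 without control 2), and a control-gene median of -0.038 to 0.40. Ranges that crossed 0 were -0.12 to 0.095 for ACACA, -0.19 to 0.19 for IDI1, -0.043 to 0.17 for FADS1, -0.34 to 0.068 for SQLE, -0.15 to 0.16 for EBP, -0.21 to 0.26 for HMGCS1, -0.038 to 0.60 for INSIG1, -0.27 to 0.034 for ACLY, -0.10 to 0.075 for ACSS2, -0.032 to 0.26 for MVK, -0.12 to 0.092 for FADS2 and -0.30 to 0.043 for CYP51A1. Between number prefixes, 2187 genes and 1 member passed. This became 4363 and 7 with equal summed FPKM, 1 and 0 with gestational age, 1 and 0 with the acinar mean, 17 and 0 without both females, 24 and 0 with fetal sex, and 18 to 2272 genes and 0 to 2 members leaving out 1 animal (18 and 0 without control 2). It was 2 members with a mean of at least 5 FPKM and 2 with median-of-ratios scaling.

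Deviations of same-numbered animals from their group means correlated at -0.156, -0.381, -0.034 and 0.093. These correlations cannot show whether animals were paired by design, and the main fit did not treat replicate numbers as pairs. With the number as a replicate block, 0 genes and 0 members passed, and 646 genes and 1 member reached the unadjusted level. Depth cannot be had from FPKM in absolute terms, so no counting error stands beside these values.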
